A study of Mus musculus with 6 samples.

Results

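This account covers 44 of the 18388 genes in a table of RNA-seq expression values from mouse embryo-like aggregates: the nucleoporins and the nuclear transport receptors. They were chosen by their gene symbols, namely Nup followed by a digit, Kpna, Kpnb, Ipo, Xpo and Tnpo genes. No expression value decided which gene entered, but the set was proposed with the difference between PFOA and DMSO in these libraries already known. That difference is therefore given as a description, and no test over the set is reported. The 44 genes are 21 nucleoporins and 23 transport receptors. The aggregates model the compacting morula and were grown from mouse expanded pluripotent stem cells, first in N2B27LCDM medium and then in an induction medium. There were 3 libraries from aggregates given the solvent DMSO and 3 from aggregates given perfluorooctanoic acid (PFOA), a persistent fluorinated surfactant. The sources used here give no dose, length of exposure, strain or number of aggregates per library. The series title names c-MYC in embryo compaction. The labels do not say that the replicates came from separate cultures, so intervals and p-values cover the spread over these 6 libraries, and that spread may be technical.

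Nuclear pore complexes are the channels through which proteins and RNA cross the nuclear envelope. Scaffold rings of nucleoporins hold the pore in the membrane, and nucleoporins with phenylalanine-glycine repeats fill its channel and form filaments on both faces. Import receptors, mostly of the importin beta family, carry cargo in and release it when they bind the GTPase Ran in its GTP form, whereas exportins need that form of Ran to carry cargo out. Importin alpha proteins are adaptors between a classical nuclear localization signal and importin beta. Pluripotent stem cells are known for abundant importin alpha 1, the product of Kpna2, which carries the pluripotency factor OCT4 into the nucleus.

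Levels are in FPKM, the fragments of a gene divided by its transcript length and by the mapped fragments of the library, so that genes of different length can be set side by side. Where 3 values are given for a group, they stand in the order of libraries 1, 2 and 3. FPKM summed to 655153, 657239 and 641975 under DMSO and to 585739, 630644 and 623160 under PFOA. Each PFOA total was below each DMSO total, with PFOA 1 the lowest. Per library, 16823 to 16913 genes were above 0. All 8 listed markers of pluripotent cells were detected, with summed levels of 4590 to 4802 FPKM in DMSO and 3948 to 4439 in PFOA. The most abundant, Dppa5a and Pou5f1, had means of 2239 and 979 FPKM in DMSO and 1952 and 885.5 in PFOA. Of the 8, 3 were higher in PFOA and 5 lower, against 47.6% of all tested genes higher. With the trend on transcript length described below removed, 5 were higher and 3 lower, against 51% of genes higher. All PFOA values lay below DMSO for 3 of the 8 (against 13.7% of tested genes) and above for 1 (against 13.5%). With the trend removed they lay below for 0 (against 9.5%) and above for 2 (against 10.7%). The 8 markers of fibroblast or feeder cells summed to between 22.9 and 27.9 FPKM in DMSO and 20.8 and 22.7 in PFOA. Of the 7 tested, 6 were lower in PFOA, against 6225 of all 11876 tested genes. All PFOA values lay below DMSO for 2 of the 7, Twist2 and Dcn, against 13.7% of tested genes. With the trend removed this held for 1, Twist2, against 9.5%. The part of these markers in the results below was not tested. Of 7 trophectoderm markers, the sum was 510 to 583 and 495 to 564 FPKM, nearly all from the keratins Krt8 and Krt18, which other epithelial cells also make. The 6 primitive endoderm markers summed to 4.92 FPKM or less in each library. The 4 neural markers summed to 28.7 to 29.3 FPKM in DMSO and 25.0 to 26.7 in PFOA, nearly all from Tubb3 (log2 fold change −0.16, 95% confidence interval −0.25 to −0.065). Whether this bears on the members was not tested. In bulk RNA, a change in the number of cells of a type and a change in RNA per cell cannot be told apart.

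The series concerns MYC, which with its partner MAX binds the E-box CACGTG, so the promoters of these genes were searched for it. RefSeq promoters (build GRCm38.p6, not the submitters' build) were found for 35 of the 44 genes, from 250 bases before the transcript start to 50 after it. The palindrome CACGTG, which reads the same on both strands, lay in the promoter of 7 of the 35, or 20%, against 8.09% of all 27025 genes with an entry, coding or not. The 7 are Ipo4, Ipo7, Nup54, Nup93, Nup188, Tnpo2 and Xpot. Other motifs were searched on both strands, and matches of different motifs may overlap. GGGCGG (SP1) was in 71.4% of the 35 and 38.2% of all genes, CCAAT in 57.1% and 41.1%, the ETS motif CCGGAAG in 17.1% and 9.93%, and the NRF1 core GCGCATGC in 11.4% and 3.05%. A match is a stretch of letters and not a measured binding site. Shown are the 250 bases before the start of the members with a pair of E-boxes, Nup188 and Tnpo2, and of Nup54, which has 1 E-box and nearly equal levels in both groups. Each reads 5′ to 3′ on the gene's own strand, and capitals mark the E-box.

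Nup188, chr2:30286166-30286415, plus strand: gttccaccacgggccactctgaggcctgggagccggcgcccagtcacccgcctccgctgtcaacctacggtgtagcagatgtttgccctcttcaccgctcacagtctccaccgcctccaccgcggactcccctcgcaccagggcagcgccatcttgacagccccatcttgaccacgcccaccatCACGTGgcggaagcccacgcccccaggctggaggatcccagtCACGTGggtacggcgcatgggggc

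Tnpo2, chr8:85036643-85036892, plus strand: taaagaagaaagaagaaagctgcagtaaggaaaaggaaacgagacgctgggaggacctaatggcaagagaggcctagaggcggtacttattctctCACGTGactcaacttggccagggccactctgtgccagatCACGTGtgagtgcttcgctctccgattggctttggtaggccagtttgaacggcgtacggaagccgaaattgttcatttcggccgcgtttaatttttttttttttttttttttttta

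Nup54, chr5:92435200-92435449, minus strand: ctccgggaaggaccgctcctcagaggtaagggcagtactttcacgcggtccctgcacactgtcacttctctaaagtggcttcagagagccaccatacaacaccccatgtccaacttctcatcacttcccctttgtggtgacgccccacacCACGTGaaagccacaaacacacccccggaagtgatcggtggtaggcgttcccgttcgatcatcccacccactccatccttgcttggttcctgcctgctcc

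The E-boxes of Nup188 start at positions −66 and −24 from the transcript start, those of Tnpo2 at −155 and −116, and that of Nup54 at −100. RefSeq lists another start of Tnpo2 downstream of this one, whose sequence is not shown.

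Most members lay close together in level, with a few far above and below. Kpna2 was the most abundant at a mean of 345 FPKM over the 6 libraries. The importin beta gene Kpnb1 (218 FPKM), the importin Ipo5 (209) and the major exportin gene Xpo1 (113) followed. These 4 were the members over 100 FPKM, and 38 lay between 10 and 100. Nup210l, a relative of Nup210, and Kpna7, an importin alpha known from oocytes and early embryos, were under 0.5 FPKM in every library. Nup210l read 0.28, 0.20 and 0.24 FPKM under DMSO and 0.37, 0.30 and 0.28 under PFOA. Kpna7 read 0.13, 0.10 and 0.13 under DMSO against 0.03, 0.16 and 0.06 under PFOA, and its groups overlapped near the lowest values the table gives. Both fell under the minimum mean of 1 FPKM used for testing, and the other 42 passed it. In the order of mean levels, 35 of the 43 neighbouring pairs had overlapping ranges over the libraries. Pairs that did not overlap included Kpna2 above Kpnb1, Ipo5 above Xpo1, Xpo1 above the scaffold nucleoporin Nup85, and Nup210 above Nup210l. The 44 genes' summed share of the library's FPKM was 0.403%, 0.400% and 0.413% under DMSO and 0.479%, 0.430% and 0.437% under PFOA. The totals that divide this share were lower in every PFOA library than in every DMSO library. The members' own sum was 2640, 2632 and 2653 FPKM under DMSO and 2806, 2714 and 2722 under PFOA.

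**Figure D1:**
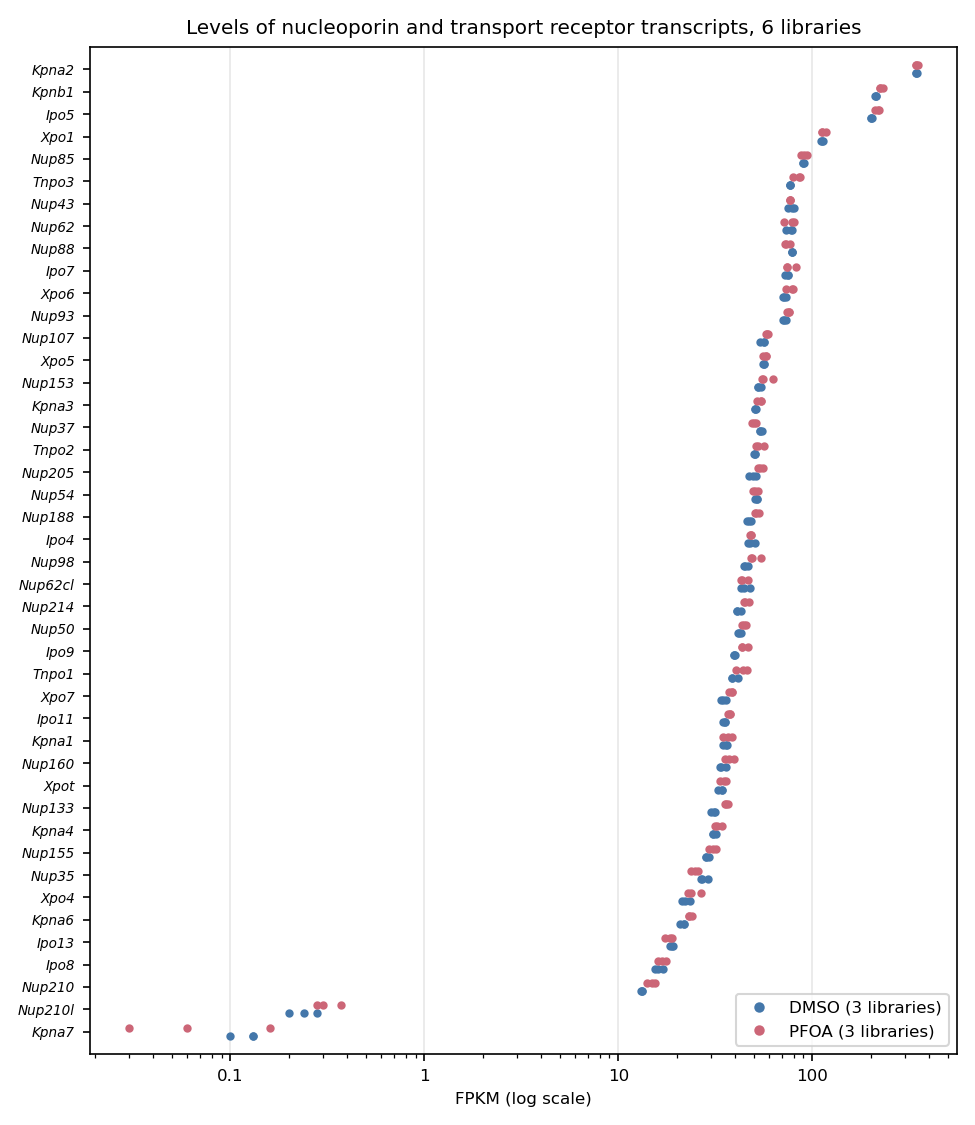
FPKM of the 44 genes in each library on a log scale, ordered by mean level, with DMSO libraries in blue and PFOA libraries in red, 1 point per library. Kpna2 stands highest at about 345 FPKM, most genes lie between 10 and 100, and Nup210l and Kpna7 lie under 0.5.

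Most members were slightly higher in PFOA. Of the 42 tested, 34 (81.0%) were higher and 8 lower, against 47.6% higher of all 11876 tested genes, and the median log2 fold change was 0.077 against −0.0065 over all tested genes. All 3 PFOA values lay above all 3 DMSO values for 21 members (50%), against 13.5% of tested genes, and below them for 3 (7.14%), against 13.7%. The differences were small: single members ranged from −0.15 to 0.22, and the median half-width of their 95% confidence intervals was 0.092. No member was called (0 of 42) by limma with Benjamini-Hochberg adjustment over all genes, with adjusted p from 0.11 to 0.975, while 0.00842% of all genes, the single gene Bri3, passed. At an unadjusted p under 0.05 in limma, 15 members were higher (35.7%, against 8.56% of genes) and 3 lower (7.14%, against 12.5%). Quantile normalization gave 24 higher and 1 lower at this p. It also shifted the whole table, with 53.7% of all genes higher and a median of 0.00998. Leaving out 1 library gave 8 to 17 members higher at this p, the lowest without DMSO 1. It gave 1 to 3 lower, with 1 lower without DMSO 1 or without PFOA 2. Shares of all genes at this p were not computed for these settings. PFOA 1 held the highest value of 28 of the 42. The members' median relative to the DMSO mean was −0.0062, −0.0039 and 0.0090 under DMSO and 0.12, 0.057 and 0.048 under PFOA, and without PFOA 1 the median log2 fold change was 0.059 with 32 higher and 10 lower.

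**Figure D2:**
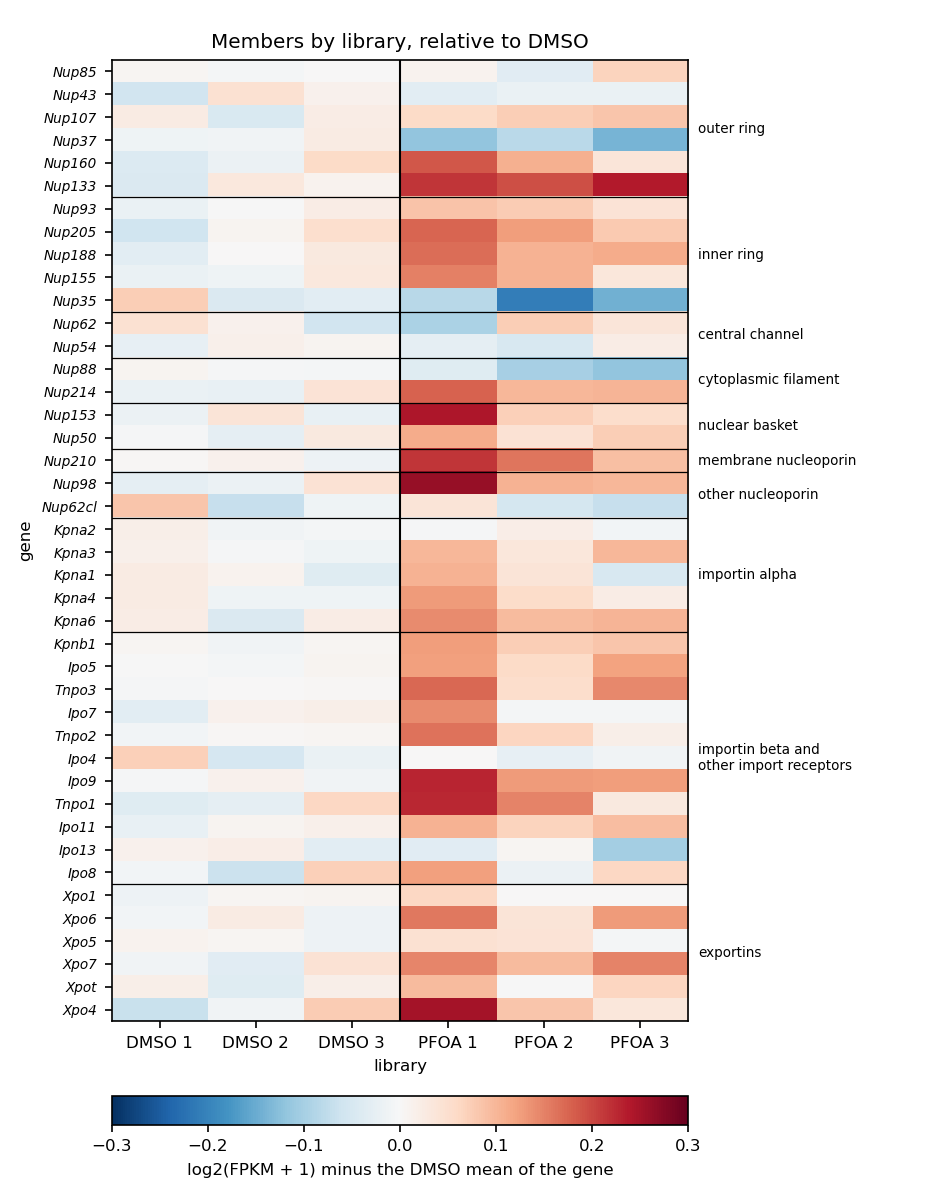
Each row is 1 of the 42 tested genes and each column 1 library, and the colour gives log2(FPKM + 1) minus the gene's DMSO mean, with red for higher and blue for lower. Most rows turn red in the PFOA columns, most strongly in PFOA 1, while Nup37, Nup35 and Nup88 turn blue.

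The difference went with transcript length. The 4 members with a longest coding transcript under 2000 nt (Nup37, Nup43, Nup35 and Nup62cl) were all lower in PFOA, by a median of −0.070 on the log2 scale, and 17.1% of the 3073 tested genes of that length were higher, with a median of −0.10. Of the 9 members from 2000 to under 4000 nt, 5 were higher (55.6%, against 43.0% of such genes). All 16 members from 4000 to under 6000 nt were higher, with a median of 0.091, against 70.5% of genes and a median of 0.044. All 13 of at least 6000 nt were higher as well, with a median of 0.13, against 89.1% and 0.11. The members are long, with a median of 4961.5 nt against 3048 nt for all tested genes. Spearman's rho between length and log2 fold change was 0.766 across the 42 members, 0.880 across the 20 nucleoporins and 0.486 across the 22 receptors. It was 0.598 across the 11540 tested genes with a length, and in each case genes of the same libraries are not independent replicates.

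**Figure D3:**
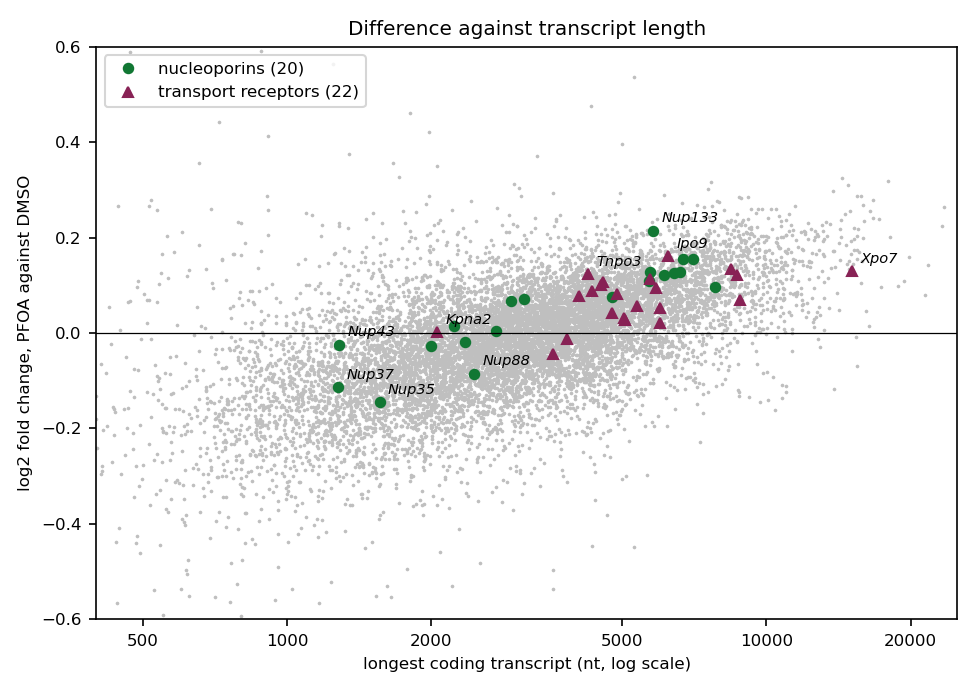
Log2 fold change of PFOA against DMSO plotted against the longest coding transcript of each gene on a log scale, with all tested genes in grey, nucleoporins as green circles and transport receptors as purple triangles; 70 of 11540 genes lie outside the axes. Short nucleoporins such as Nup35 and Nup37 lie below 0, long members lie above 0, and Nup133 lies above most genes of its length.

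With a per-library trend on this length removed, the picture was flatter. The median log2 fold change of the members was then 0.036, against 0.0022 over all genes, with 29 of 42 higher (69.0%, against 51% of genes). All PFOA values lay above all DMSO values for 16 members (38.1%, against 10.7%) and below for 1, Xpo1 (2.38%, against 9.5%). At an unadjusted p under 0.05 in limma, 5 members were higher (11.9%, against 6.38%): Nup133, Nup107, Nup93, Tnpo3 and Ipo9. None was called (0 of 42), with a lowest limma adjusted p of 0.235. Per library, the members' median then stood at −0.0065, 0.00031 and 0.0077 under DMSO and at 0.058, 0.023 and 0.035 under PFOA, so the groups did not overlap. Removal changed the sign of 11 members. Below, the length trend means this one, on the longest transcript. A trend on the median length of a gene's coding transcripts was removed instead, a choice made after seeing the data. Then 35 of 42 were higher (against 49.1% of all genes), with a median of 0.042 against −0.0021.

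**Figure D4:**
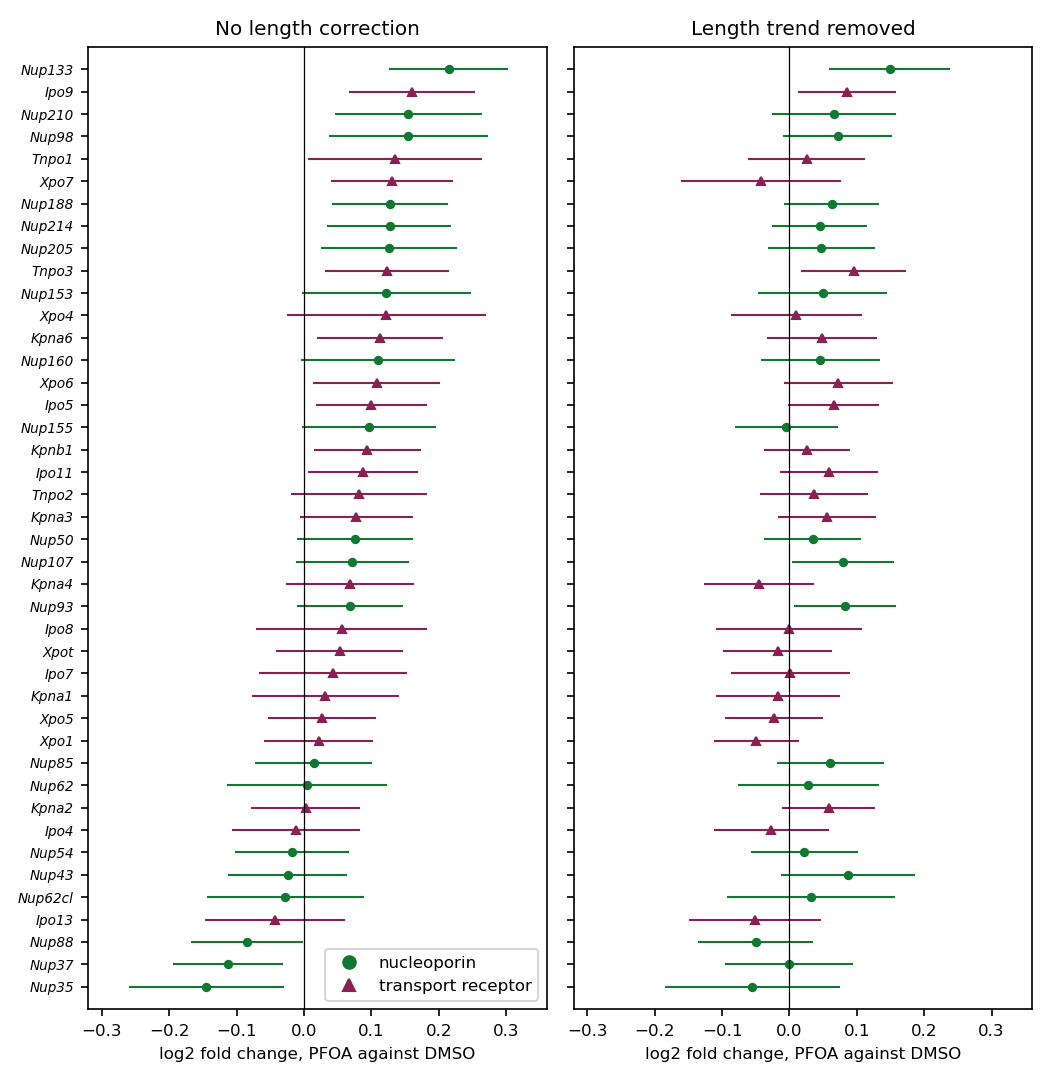
Log2 fold changes of the 42 tested genes with 95% confidence intervals from limma, on the left without a length correction and on the right with the length trend removed, in the same gene order. Nup133 is highest on both sides, and the lower values of Nup37, Nup35 and Nup88 on the left move towards 0 on the right.

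Outer ring nucleoporins build the Y-shaped scaffold on both faces of the pore, and 4 of 6 were higher in PFOA. Nup133, a ring subunit that mouse embryonic stem cells are known to need for neural differentiation, had the largest difference of all members. It was 30.0, 31.6 and 31.1 FPKM under DMSO and 36.1, 35.5 and 36.6 under PFOA (log2 fold change 0.22, 95% confidence interval 0.13 to 0.30; limma adjusted p = 0.11), and no PFOA value came near the DMSO range. After removal of the length trend its log2 fold change was 0.15 (0.060 to 0.24). Nup160, its partner in the ring, was 33.5, 34.0 and 35.9 FPKM under DMSO and 39.3, 37.1 and 35.4 under PFOA (log2 fold change 0.11, 95% confidence interval −0.0027 to 0.22), with DMSO 3 above PFOA 3. Nup37, a small ring subunit, was 53.7, 53.8 and 55.2 FPKM under DMSO and 49.9, 51.2 and 49.1 under PFOA (log2 fold change −0.11, 95% confidence interval −0.19 to −0.032). Each PFOA value of Nup37 was below each DMSO value, but without the length trend the difference was −0.0010 (−0.095 to 0.093). Nup85, the most abundant member of the ring, was 90.2, 89.5 and 90.0 FPKM under DMSO and 90.5, 87.8 and 94.3 under PFOA (log2 fold change 0.014, 95% confidence interval −0.071 to 0.10), and its groups overlapped. Nup107 was 55.6 ± 1.6 FPKM under DMSO and 58.5 ± 0.55 under PFOA (SD, n = 3 each) and Nup43 78.2 ± 2.9 FPKM under DMSO and 76.8 ± 0.38 under PFOA. Their log2 fold changes were 0.072 and −0.024. With the length trend removed, Nup107 was at 0.080 (0.0051 to 0.15) and Nup43 at 0.087 (−0.011 to 0.185), both with all PFOA values above DMSO. Nup85, at 90.4 FPKM, and Nup133, at 33.5, thus differed widely in level although both belong to 1 complex.

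Inner ring nucleoporins anchor the pore to the curved membrane and hold its central channel. All PFOA values were above DMSO for 4 of 5 (against 13.5% of all genes), and below it for the shortest, Nup35 (against 13.7%). Once the length trend was removed, they were above for 2 of 5 (against 10.7% of all genes) and below for 0 (against 9.5%). Nup188 was 46.2, 47.3 and 48.2 FPKM under DMSO and 53.1, 50.8 and 51.1 under PFOA (log2 fold change 0.13, 95% confidence interval 0.042 to 0.21). Nup205, a related large scaffold protein, was 47.4, 49.7 and 51.3 FPKM under DMSO and 56.0, 54.0 and 52.2 under PFOA (log2 fold change 0.13, 95% confidence interval 0.027 to 0.23). Nup93, which links the ring to the channel nucleoporins and was its most abundant member, was 70.8, 71.7 and 72.9 FPKM under DMSO and 76.2, 75.7 and 73.9 under PFOA (log2 fold change 0.068, 95% confidence interval −0.009 to 0.15). For these 3 genes the groups did not overlap. With the length trend removed the differences were 0.063 (−0.0061 to 0.13), 0.048 (−0.031 to 0.13) and 0.083 (0.0086 to 0.16), and the groups of Nup205 overlapped. With the trend on median length removed the 3 differences were 0.20, 0.032 and 0.062. Nup155 was 28.7 ± 0.57 FPKM under DMSO and 30.8 ± 1.3 under PFOA (SD, n = 3 each), with −0.0047 after removal of the trend. Nup35, which binds the membrane, was 29.0, 26.6 and 26.9 FPKM under DMSO and 25.9, 23.7 and 24.8 under PFOA (log2 fold change −0.15, 95% confidence interval −0.26 to −0.031). After removal of the trend the difference was −0.056 (−0.18 to 0.073). Nup35 shares 83.0% of its 50-nt words with the gene Gm4353, so reads of the pair could have been split in the authors' counting.

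Most channel and peripheral nucleoporins carry the repeats that transport receptors touch. The channel nucleoporin Nup62 was 79.0, 77.2 and 73.5 FPKM under DMSO and 71.6, 80.6 and 78.5 under PFOA (log2 fold change 0.0048, 95% confidence interval −0.11 to 0.12), with PFOA 1 the lowest and PFOA 2 the highest library. Its partner Nup54, whose promoter is printed above, was 50.5, 52.0 and 51.7 FPKM under DMSO and 50.4, 49.7 and 52.2 under PFOA (log2 fold change −0.018, 95% confidence interval −0.10 to 0.065). Neither separated the groups. On the cytoplasmic face, Nup214 was 41.1, 41.0 and 42.9 FPKM under DMSO and 47.2, 44.7 and 44.8 under PFOA (log2 fold change 0.13, 95% confidence interval 0.036 to 0.22), whereas its partner Nup88 was 78.8, 78.2 and 78.1 FPKM under DMSO and 76.4, 73.0 and 72.1 under PFOA (log2 fold change −0.085, 95% confidence interval −0.17 to −0.0030). The groups of both genes stayed apart, in opposite directions, and their transcripts are 6605 and 2453 nt long. Without the length trend, the values were 0.045 (−0.024 to 0.11) and −0.050 (−0.13 to 0.034). In the nuclear basket, Nup153, known to bind chromatin in pluripotent cells, was 52.4, 54.6 and 52.3 FPKM under DMSO and 63.0, 55.8 and 55.1 under PFOA (log2 fold change 0.12, 95% confidence interval −0.0012 to 0.25), and PFOA 1 stood above the other libraries. Nup50, which helps to release importin alpha from its cargo, was 42.1, 41.5 and 43.1 FPKM under DMSO and 45.7, 43.5 and 44.5 under PFOA (log2 fold change 0.076, 95% confidence interval −0.0085 to 0.16). With the length trend removed, Nup153 was at 0.049 (−0.045 to 0.14) and Nup50 at 0.034 (−0.036 to 0.105), and the groups of both overlapped. With the trend on median length removed these 2 genes were at 0.19 and 0.052.

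The remaining nucleoporins are a membrane protein, a mobile repeat protein and a paralog. Nup210, which spans the membrane and is known to increase when myoblasts and embryonic stem cells differentiate, was 13.2, 13.3 and 13.1 FPKM under DMSO and 15.5, 14.9 and 14.1 under PFOA (log2 fold change 0.16, 95% confidence interval 0.047 to 0.26). It was the least abundant tested member, and the groups did not overlap. Nup98, whose precursor protein is cut into a repeat nucleoporin and an outer ring subunit, was 44.4, 44.8 and 46.7 FPKM under DMSO and 54.5, 48.8 and 48.6 under PFOA (log2 fold change 0.16, 95% confidence interval 0.038 to 0.27). PFOA 1 was again the highest library, and with the length trend removed the values were 0.066 (−0.025 to 0.16) for Nup210 and 0.072 (−0.0075 to 0.15) for Nup98. Nup62cl, a relative of Nup62, was 47.8, 42.9 and 44.7 FPKM under DMSO and 46.4, 43.4 and 42.9 under PFOA (log2 fold change −0.028, 95% confidence interval −0.14 to 0.087), with overlapping groups.

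Importin alpha genes were dominated by Kpna2. Its share of the summed importin alpha FPKM was 71.1%, 71.2% and 71.3% under DMSO and 69.5%, 70.7% and 70.4% under PFOA. Kpna2 was 349, 342 and 343 FPKM under DMSO and 344, 349 and 342 under PFOA (log2 fold change 0.0023, 95% confidence interval −0.077 to 0.082). The groups covered nearly the same range in FPKM. Its difference was 0.059 with the length trend removed, where all PFOA values were above DMSO, 0.074 with the trend on median length removed and 0.10 under quantile normalization. Kpna2 shares 92.4% of its 50-nt words with other genes, foremost the processed copies Gm10184, Gm10259 and Gm12919, so its level is uncertain. Kpna6 was 21.9, 20.8 and 21.9 FPKM under DMSO and 23.9, 23.1 and 23.2 under PFOA (log2 fold change 0.11, 95% confidence interval 0.021 to 0.21), and its groups did not overlap. With the length trend removed it was at 0.049 (−0.032 to 0.13). Kpna3 was 51.4, 50.8 and 50.4 FPKM under DMSO and 54.6, 52.0 and 54.5 under PFOA (log2 fold change 0.078, 95% confidence interval −0.0045 to 0.16), with each PFOA value above DMSO. Its closest relative Kpna4 was 31.7, 30.9 and 30.9 FPKM under DMSO and 34.2, 32.4 and 31.7 under PFOA (log2 fold change 0.068, 95% confidence interval −0.025 to 0.16), where PFOA 3 lay inside the DMSO range. Kpna4 turned to −0.046 with the length trend removed and stayed at 0.033 with the trend on median length removed. Kpna1 was 35.7 ± 0.79 FPKM under DMSO and 36.5 ± 2 under PFOA (SD, n = 3 each). All 5 tested importin alpha genes were higher in PFOA, as they were with the trend on median length removed, while 3 of 5 were so with the longest-transcript trend removed.

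Import receptors of the importin beta family were higher in PFOA for 9 of 11 (against 47.6% of all genes), and 6 had all PFOA values above DMSO (against 13.5%). After removal of the length trend 8 of 11 were higher (against 51% of all genes) and 5 lay above (against 10.7%). Kpnb1, importin beta itself, was 212, 209.7 and 212 FPKM under DMSO and 230.5, 222 and 224 under PFOA (log2 fold change 0.094, 95% confidence interval 0.016 to 0.17). Ipo9, a carrier of histones, was 39.7, 40.1 and 39.5 FPKM under DMSO and 46.8, 43.5 and 43.5 under PFOA (log2 fold change 0.16, 95% confidence interval 0.068 to 0.25). Tnpo3, which imports the SR family of splicing factors, was 76.6, 76.9 and 77.0 FPKM under DMSO and 86.6, 79.8 and 84.9 under PFOA (log2 fold change 0.12, 95% confidence interval 0.032 to 0.21). For these 3 genes DMSO values lay within narrow ranges and all PFOA values were above them. Once the length trend was removed, Kpnb1 was at 0.026 (−0.037 to 0.088), Ipo9 at 0.085 (0.014 to 0.16) and Tnpo3 at 0.10 (0.019 to 0.17). Tnpo1, the receptor of hnRNP proteins, was 38.4, 38.6 and 41.2 FPKM under DMSO and 46.3, 43.8 and 40.2 under PFOA (log2 fold change 0.14, 95% confidence interval 0.0073 to 0.26), with PFOA 3 below DMSO 3. Without the length trend, it was at 0.025 (−0.060 to 0.11). Its paralog Tnpo2 was 50.3 ± 0.29 FPKM under DMSO and 53.4 ± 2.8 under PFOA (SD, n = 3 each), and its PFOA values were all above DMSO. Ipo5, an importer of ribosomal proteins, was 202 ± 0.9 FPKM under DMSO and 216 ± 5.4 under PFOA, and Ipo11 was 35.1 ± 0.51 FPKM under DMSO and 37.4 ± 0.5 under PFOA, both without overlap. Ipo7, which shares that cargo, was 74.2 ± 1.4 FPKM under DMSO and 76.5 ± 4.7 under PFOA, and Ipo8, known for carrying SMAD proteins, was 16.1 ± 0.82 FPKM under DMSO and 16.8 ± 0.88 under PFOA. The groups of both overlapped. Ipo4 was 48.5 ± 2.2 FPKM under DMSO and 48.0 ± 0.42 under PFOA and Ipo13, which can also export cargo, 18.8 ± 0.39 FPKM under DMSO and 18.3 ± 0.74 under PFOA. These 2 were the import receptors with lower means in PFOA, also with overlap. Ipo4 shares 59.5% of its 50-nt words with the annotated gene Gm49378.

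Exportins were all higher in PFOA before a length correction (6 of 6). After it, 2 of 6 were higher with the longest-transcript trend removed and 4 of 6 with the trend on median length removed. Xpo1, the exporter of proteins with leucine-rich signals, was 111, 113 and 113 FPKM under DMSO and 118, 112 and 113 under PFOA (log2 fold change 0.022, 95% confidence interval −0.058 to 0.10). With the length trend removed it was at −0.049 (−0.11 to 0.013), and its PFOA values then all lay below DMSO. Xpo6, the exporter of actin, was 71.2, 72.8 and 70.8 FPKM under DMSO and 79.9, 73.6 and 78.3 under PFOA (log2 fold change 0.11, 95% confidence interval 0.015 to 0.20). Xpo7, with the longest transcript of all members at 15121 nt, was 34.5, 33.9 and 35.9 FPKM under DMSO and 38.6, 37.2 and 38.6 under PFOA (log2 fold change 0.13, 95% confidence interval 0.041 to 0.22). Both separated the groups, and with the length trend removed Xpo6 was at 0.073 and Xpo7 at −0.042. With the trend on median length removed they were at 0.18 and 0.075, so the sign of Xpo7 turned with the length measure. Xpo4 was 21.2, 22.1 and 23.6 FPKM under DMSO and 26.7, 23.6 and 22.8 under PFOA (log2 fold change 0.12, 95% confidence interval −0.024 to 0.27), where PFOA 1 was the highest and PFOA 3 lay inside the DMSO range. The difference was 0.059 without PFOA 1, and 0.010 with the length trend removed. The exporter of microRNA precursors, Xpo5, was 56.0 ± 0.55 FPKM under DMSO and 57.1 ± 1.2 under PFOA (SD, n = 3 each), and the tRNA exporter Xpot 33.6 ± 0.75 FPKM under DMSO and 34.9 ± 1.2 under PFOA. Their groups overlapped.

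Members with and without an E-box in the promoter covered overlapping ranges. Of the 7, 5 were higher and 2 lower, at a median of 0.053 and a range of −0.018 to 0.13 on the log2 scale. Of 27 tested members with a promoter entry and no E-box, 23 were higher and 4 lower, with a median of 0.094. Nup133, the member with the largest difference, had an entry without an E-box. After removal of the length trend the medians were 0.022 and 0.045. Tnpo2 and Nup188, with a pair of E-boxes each, stood at 0.081 and 0.13, and Nup54 was at −0.018. The split is a description and was not tested.

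Pore genes whose symbols the rule does not reach were likewise mostly higher in PFOA. Of 10, 7 were higher and 3 lower, with a median of 0.069 (8 of 10 higher and 0.057 with the length trend removed), and 0 passed the adjusted test in either direction. At an unadjusted p under 0.05 in limma, 3 were higher (against 8.56% of all genes) and 1 lower (against 12.5%). With the length trend removed these counts were 1 and 0, against 758 and 836 of all 11876 tested genes. Tpr, the main filament of the nuclear basket, was 57.5, 58.2 and 62.3 FPKM under DMSO and 72.9, 67.1 and 66.2 under PFOA (log2 fold change 0.21, 95% confidence interval 0.10 to 0.32). The groups were well apart, and the difference was 0.11 with the length trend removed. Ahctf1, which encodes ELYS, the protein that seeds pores on chromatin after mitosis, was 32.1, 33.4 and 35.5 FPKM under DMSO and 40.1, 37.5 and 36.2 under PFOA (log2 fold change 0.17, 95% confidence interval 0.049 to 0.29), also without overlap, and 0.059 after removal of the trend. Nupl1 and Nupl2 are nucleoporins that stand in the table under older symbols, named outside the rule for genes. Nupl1 (Nup58), the partner of Nup54 and Nup62 in the channel, was 34.2, 35.7 and 35.8 FPKM under DMSO and 39.0, 39.5 and 37.1 under PFOA, and Nupl2 (Nup42) was 7.69 ± 0.17 FPKM under DMSO and 7.95 ± 0.75 under PFOA (SD, n = 3 each). Nupl1 was higher in all PFOA libraries and its log2 fold change stayed at 0.12 after removal of the trend, against 0.13 before.

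Genes of the Ran cycle and other soluble factors were mostly a little lower in PFOA: 1 of 10 was higher and 9 lower, with a median of −0.058 and 0 called. This direction did not hold under quantile normalization (6 of 10 higher, median 0.023) or with the length trend removed (5 of 10, 0.0086). With the trend on median length removed 2 of 10 were higher, with a median of −0.024. Rangrf, a small factor that binds Ran, was 72.3, 74.2 and 68.2 FPKM under DMSO and 63.5, 68.9 and 59.8 under PFOA (log2 fold change −0.16, 95% confidence interval −0.29 to −0.029). Rcc2, a relative of the exchange factor of Ran, was 165, 169 and 168 FPKM under DMSO and 154, 162 and 155 under PFOA (log2 fold change −0.090, 95% confidence interval −0.17 to −0.0078), and all its PFOA values were below DMSO. With the trend removed Rangrf was at −0.00053 and Rcc2 at −0.11. The higher gene, named after its value was seen, was Cse1l, the exportin that returns importin alpha to the cytoplasm, at 173 ± 4.4 FPKM under DMSO and 183 ± 5.3 under PFOA (SD, n = 3 each).

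Genes of mRNA export were higher for 8 of 20 and lower for 12, with a median of −0.045 and 0 called; under quantile normalization 10 lay on each side of 0. In limma, 2 of 20 were higher (against 8.56% of all genes) and 6 lower (against 12.5%) with an unadjusted p below 0.05. Once the length trend was removed, 9 were higher and 11 lower, with a median of −0.0064. In each direction 2 then had such a p, against 758 higher and 836 lower of all 11876 tested genes. Thoc7, a subunit of the THO complex, was 47.7, 50.1 and 49.0 FPKM under DMSO and 40.7, 41.0 and 40.6 under PFOA (log2 fold change −0.26, 95% confidence interval −0.34 to −0.18; limma adjusted p = 0.11), with narrow and separate groups. Alyref, the adaptor that hands mRNA to the export receptor, was 98.0, 99.0 and 93.6 FPKM under DMSO and 86.0, 83.3 and 82.2 under PFOA (log2 fold change −0.21, 95% confidence interval −0.29 to −0.12; limma adjusted p = 0.11). Without the length trend, Thoc7 was at −0.11 (−0.22 to −0.0057) and Alyref at −0.21 (−0.29 to −0.14). The groups of Thoc7 then overlapped, while those of Alyref stayed apart. Nuclear lamina and envelope linker genes were higher for 5 of 12 and lower for 7, with a median of −0.012 and 0 called, but 7 were higher under quantile normalization, with a median of 0.023. With the length trend removed 4 were higher and 8 lower, with a median of −0.044. Banf1, which ties chromatin to the envelope, was 238, 241 and 219.9 FPKM under DMSO and 181, 211 and 208 under PFOA (log2 fold change −0.22, 95% confidence interval −0.37 to −0.074), lowest in PFOA 1. Lmnb2, a B-type lamin, was 36.2, 35.5 and 35.8 FPKM under DMSO and 32.6, 33.5 and 33.3 under PFOA (log2 fold change −0.11, 95% confidence interval −0.19 to −0.029). Both had PFOA values below all DMSO values, and with the trend removed they were at −0.11 and −0.12.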

How the data were processed

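The authors deposited FPKM values to 2 decimals, 1 column per library, for mouse morula-like aggregates. Aligners (HISAT2 2.0.4 and Bowtie2 2.2.5) and the build (GRCm39) are from the submitters' processing notes, which give them no role; how fragments were counted, and on which annotation, is not given in the sources used here. Library depth is unknown. For 2571 low genes, 21.4% of 9581 larger values came within 0.15 of a whole multiple of the gene's lowest value. Values close to the lowest were left out, so no share for an even spread is given. The comparison runs across libraries, and FPKM also carries each library's depth, so it cannot show whether reads could be recovered. The deposited values are FPKM, and a count test was not run. Genes with a mean of at least 1 FPKM (11876; 6512 left out) were fitted as log2(FPKM + 1) by limma 3.58.1 under R 4.3.3, whose prior variance followed mean expression. Tests were two-sided, adjusted by Benjamini-Hochberg over all genes and called under 0.05. Fold changes are on that scale and understate changes of low genes. The fit was checked on simulated data.

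Upper-case symbols are written here in mouse style. Lengths of coding transcripts, and the share of 50-nt words found in other genes, were computed from GENCODE M21, on another build, with a length for 97.2% of tested genes. The length trend was a lowess curve (span 0.5) per library, through deviations from each gene's mean. FPKM scales by length and library total, so a bias by length or a shift in abundant transcripts moves many genes together. Members and gene lists were chosen with earlier results of these data known. Values in every library are given, per role, for the most abundant member and the up to 3 largest absolute log2 fold changes, and per pathway list for the 2 smallest p-values. Genes shown with mean ± SD are the other members, and Cse1l and Nupl2, which are no members. Alternatives were quantile normalization, other filters and pseudocounts, library weights, a replicate block, length trends and leaving out each library. The labels do not say whether same-numbered libraries were paired.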

Additional observations from a re-analysis of the deposited data

How the results depend on the processing

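None of the 42 tested members (44 without the filter) was called by limma under any of the 15 alternatives (0 each time; at an unadjusted p under 0.05 in the reported fit, 15 members were higher and 3 lower), and the count of members higher in PFOA ran from 29 with the trend on longest transcript length removed to 38 with quantile normalization. Leaving out a library in turn gave 32 to 36 members higher and medians of 0.0587 to 0.0919. The median log2 fold change over tested members, 0.0768, moved to 0.114 with quantile normalization. It moved to 0.0355 with the trend on longest transcript length removed and 0.0415 with the trend on median transcript length removed. The last was an alternative chosen after seeing the data. Over all genes the same alternatives gave medians of 0.00998, 0.00216 and −0.00211, with 53.7%, 51% and 49.1% of genes higher. Members with groups that do not overlap, in either direction, numbered 24, with 26 under quantile normalization, 20 with the trend on median length removed and 17 with that on longest length removed. Over all genes the shares were 13.5% above and 13.7% below in the reported fit, and 10.7% and 9.5% with the trend on longest length removed. For quantile normalization and the trend on median length such shares were not computed, so those counts cannot be set against all genes. At an unadjusted p under 0.05, 24 members were higher and 1 lower with quantile normalization, 9 and 1 with the median length trend removed, and 5 and 0 with the longest length trend removed. In the reported fit, 8.56% of all genes were higher and 12.5% lower at this p. With the longest length trend removed, 758 of the 11876 tested genes were higher and 836 lower. Such shares were not computed for quantile normalization, the median length trend or the replicate block. Over all genes 1 was called. The count was 0 with no filter, without the intensity trend, with the replicate block and with the trend on longest transcript length removed, and 2 with library weights. It was 0 to 94 when a library was left out: 52 without DMSO 3, 94 without PFOA 2, and 0 without DMSO 1, DMSO 2 or PFOA 3. Why these counts move was not tested. Deviations of same-numbered libraries from their group means correlated at −0.107, −0.0095 and −0.138. The labels do not say whether these libraries were paired, and so few correlations cannot settle it. With the replicate block 34 members were higher, the median was 0.0768, and 10 rather than 15 were higher at an unadjusted p under 0.05. Depth is unknown, and with 3 libraries a group the 95% confidence intervals of single members had a median half-width of 0.092 on the log2 scale, without adjustment over genes.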
